A study of Mus musculus with 12 samples.

Results

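S100a8 and S100a9, the genes of the subunits of calprotectin, were followed in mouse back skin through imiquimod (IMQ)-induced psoriasis-like lesions and treatment with Banzhilian formula (BZLF), a botanical drug formula applied externally. They were taken by their symbols from the deposited expression table and are 2 of its 18505 genes. Bulk RNA-seq measured 12 skin samples collected on day 10, with 4 in each of 3 groups. All the mice were wild-type BALB/c males of 5 to 6 weeks. The control group received petroleum jelly by the study's methods, while its labels give the treatment only as white space handling. The IMQ + NS group received IMQ cream, an agonist of Toll-like receptor 7 that inflames the skin, for 6 h and then a cover soaked in saline (NS). The IMQ + BZLF group received the same cream for 6 h and then a cover with BZLF, whose dose in the sequenced samples is not stated. By the study's methods, the treatments of all groups were repeated every day, over 10 consecutive days. The methods name no cover for the control group, so IMQ + NS and control samples differ in the cream and the cover together. Effects of these 2 cannot be told apart, and "with IMQ" below stands for that comparison. The labels do not say whether each sample came from 1 animal, so the p-values measure the spread between these samples. The IMQ model is an acute, chemically induced inflammation on healthy skin.

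S100A8 and S100A9 are small calcium-binding proteins that pair as calprotectin, a complex that binds zinc, manganese and calcium and so withholds metals from microbes. Neutrophils and monocytes hold calprotectin ready-made in their cytoplasm, and keratinocytes start to make it when they are stressed, wounded or exposed to IL-17, IL-22, IL-1 or IL-36 cytokines. Released calprotectin is an alarm signal that is sensed through TLR4 and RAGE, and both proteins are abundant in psoriatic epidermis.

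Both genes lie in the S100 cluster of mouse chromosome 3 (build GRCm38.p6, RefSeq). S100a8 spans chr3:90669071-90670034 on the plus strand and S100a9 spans chr3:90692630-90695721 on the minus strand. Their 3′ ends face each other across 22595 bases that hold 0 listed genes, and each has 3 exons. In the GENCODE annotation, the transcript of S100a8 is 486 bases long with 267 coding bases, and the transcripts of S100a9 are 512 and 519 bases long with 339 coding bases. The 250 bases before each gene start are shown because they let the promoters of a pair of genes whose levels were alike with IMQ and differed with BZLF be read side by side. They are written 5′ to 3′ on the strand of the gene, and capitals mark matches to the searched motifs on either strand.
S100a8, chr3:90668821-90669070, plus strand: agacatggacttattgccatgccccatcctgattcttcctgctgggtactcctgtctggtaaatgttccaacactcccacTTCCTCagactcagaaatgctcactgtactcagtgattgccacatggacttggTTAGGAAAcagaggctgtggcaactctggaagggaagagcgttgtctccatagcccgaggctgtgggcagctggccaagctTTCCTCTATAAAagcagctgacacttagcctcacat
S100a9, chr3:90695722-90695971, minus strand: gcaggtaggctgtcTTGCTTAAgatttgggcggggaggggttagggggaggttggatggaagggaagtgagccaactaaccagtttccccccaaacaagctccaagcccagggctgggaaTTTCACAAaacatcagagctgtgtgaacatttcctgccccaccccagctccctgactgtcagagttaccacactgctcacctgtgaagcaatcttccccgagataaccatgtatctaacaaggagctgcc

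The GC content of these windows was 50.8% for S100a8 and 53.6% for S100a9. Positions are counted back from the gene start, with the base just before it at -1, and both strands were searched for each motif. S100a8 held a TATA box (TATAAA) from -30 to -25, and S100a9 held none. A TATA box stood in 12.4% of the 32851 RefSeq windows of the same length. The C/EBP motif TTNNGNAA, that of a factor family active in myeloid cells and in epidermis, was found 1 time before S100a8, at -117, and 2 times before S100a9, at -236 and -130, and stood in 36.8% of all windows. The ETS motif GAGGAA, to which the myeloid factor PU.1 binds, was found 2 times before S100a8, at -170 and at -36 where it adjoins the TATA box, and 0 times before S100a9, against 23.3% of all windows. Neither window held a match to the STAT motif TTCNNNGAA, which stood in 7.02% of windows, the AP-1 motif TGANTCA, in 6.75%, or the NF-kappa B motif, in 45.8%. A match is a description of the letters and not of binding.

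The authors deposited expression as FPKM, the fragments of a gene scaled to the length of its transcript and to the mapped fragments of the sample, so levels can be set side by side between genes, and no counts were used here. The summed FPKM of single samples lay from 444660 to 506622, and 16649 to 16941 genes were above 0. The depth behind single values is unknown, and the precision of a mean is given by its 4 replicates. Control replicate 2 stood apart from its group. Its mean Pearson's r with the other controls was 0.953 over the genes tested, against 0.975 to 0.978 for the other controls and 0.985 to 0.988 for the samples of the other groups. Its levels of S100a8 and S100a9 lay within the range of the other controls or just under it, and both genes kept their calls without it.

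With IMQ both calprotectin genes rose from low levels to among the most abundant transcripts of the skin. In the control group, S100a8 was at 11.4, 14.5, 20.3 and 12.7 FPKM in replicates 1 to 4. In the IMQ + NS group it was at 1569, 3053, 4874 and 2544 FPKM. Every IMQ + NS sample was far above the highest control. S100a9 was at 13.6, 12.9, 21.4 and 14.5 FPKM in the control group. It was at 1537, 2675, 4957 and 2468 FPKM in the IMQ + NS group. The groups were as far apart as for S100a8, and replicate 3 of the IMQ + NS group was the highest for both genes and replicate 1 the lowest. Among all genes of a sample, S100a8 ranked 39, 7, 3 and 9 and S100a9 ranked 43, 10, 2 and 10 in the IMQ + NS samples. In the control samples the ranks of S100a8 lay from 3110 to 5052 and those of S100a9 from 2982 to 5018. Both genes together took 0.630% to 1.94% of the FPKM sum in the IMQ + NS group, against 0.00541% to 0.00915% in the control group.

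The rise was tested with limma on log2(FPKM + 0.1) over 15288 genes, and a differentially expressed gene (DEG) had to change by over 1 on the log2 scale with a Benjamini-Hochberg adjusted p below 0.05. Folds are on the scale of FPKM + 0.1. S100a8 was upregulated 192-fold in IMQ + NS against control samples, with a log2 fold change of 7.58 (SE 0.32, 95% interval 6.85 to 8.32, limma adjusted p = 6.2e-07). S100a9 was upregulated 173-fold, with a log2 fold change of 7.44 (SE 0.32, 95% interval 6.70 to 8.17, limma adjusted p = 7.2e-07). Both members were thus among the genes called higher, which were 11.4% of the genes tested, while 11% were called lower. A two-sided exact permutation test of the 4 against 4 samples gave p = 0.0286 for each gene, the smallest value this design allows. In bulk skin, more cells that express a gene and more RNA per cell cannot be told apart.

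With BZLF both genes lay far under the levels of the saline-treated lesion, but S100a8 stayed above control and S100a9 did not measurably. S100a8 was at 45.0, 42.5, 46.9 and 48.6 FPKM in replicates 1 to 4 of the IMQ + BZLF group. The 4 samples lay close together, with the highest 1.14 times the lowest. S100a9 was at 14.8, 15.6, 23.0 and 29.0 FPKM in the same samples. Replicates 1 and 2 lay within the control range of S100a9 and replicates 3 and 4 above it. In IMQ + BZLF against IMQ + NS samples, S100a8 was downregulated 60.6-fold, with a log2 fold change of -5.92 (SE 0.28, 95% interval -6.56 to -5.29, limma adjusted p = 4.4e-05). S100a9 was downregulated 134-fold, with a log2 fold change of -7.06 (SE 0.34, 95% interval -7.83 to -6.29, limma adjusted p = 4.4e-05). Of all genes tested, 2.2% were called lower in this comparison. The groups did not overlap for either gene, and the exact permutation test gave p = 0.0286 for each.

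**Figure D1:**
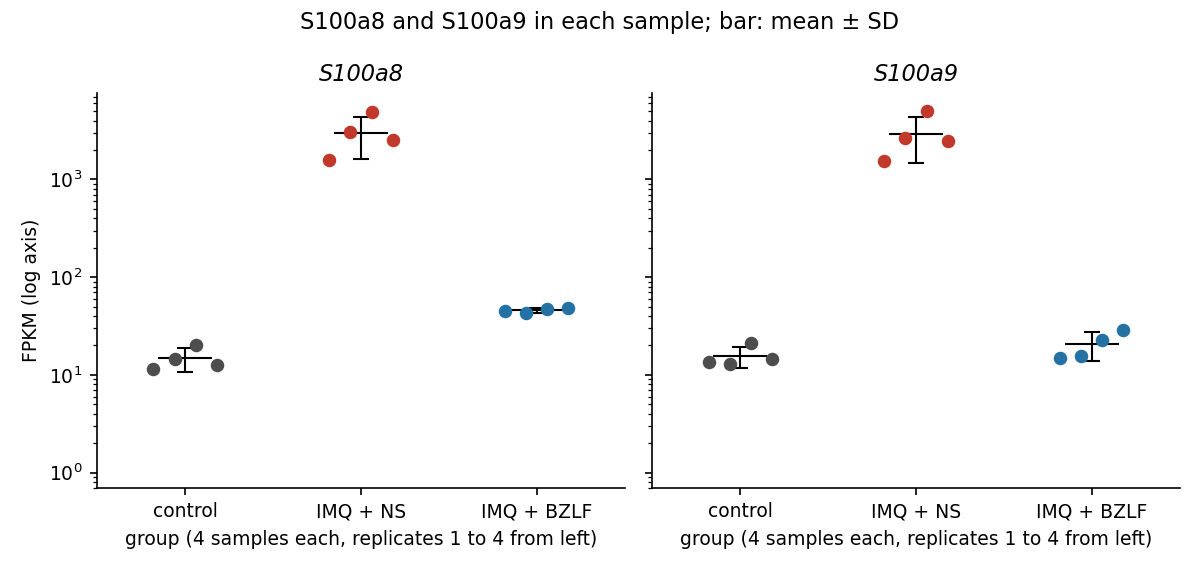
FPKM of S100a8 and S100a9 in each of the 12 samples on a log axis, with points for samples and bars for the mean ± SD (n = 4). The IMQ + BZLF samples of S100a8, at 42.5 to 48.6 FPKM, all sit above the highest control at 20.3, while those of S100a9, at 14.8 to 29.0, overlap the controls at 12.9 to 21.4.

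Against the control group, S100a8 was 3.16-fold higher in the IMQ + BZLF group (95% interval 2.44 to 4.10), with means of 45.8 ± 2.61 and 14.7 ± 3.96 FPKM (SD, n = 4). The log2 fold change was 1.66 (SE 0.17, limma adjusted p = 1.3e-04), and S100a8 was a DEG, in a comparison where 9.65% of the genes were called higher and 10.1% lower. Its lowest IMQ + BZLF sample, at 42.5 FPKM, lay above its highest control, at 20.3, with an exact permutation p of 0.0286. S100a9 was at 20.6 ± 6.69 FPKM against 15.6 ± 3.92 FPKM. Its fold of 1.30 had a 95% interval of 0.885 to 1.90 and a limma adjusted p of 0.218, the groups overlapped, and the exact permutation p was 0.171. The p-value does not show equality, and a fold of up to 1.90 remained within the interval. Over the 6 permutation tests of both genes, the Benjamini-Hochberg adjusted p was 0.0343 for the 5 that reached the smallest value and 0.171 for S100a9 in IMQ + BZLF against control samples. The order of the levels was therefore IMQ + NS, IMQ + BZLF, control for S100a8, with each step larger than the spread. For S100a9 the lower 2 groups in that order did not differ beyond their spread. The 3 comparisons share samples pairwise and are not independent of each other.

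The share of the rise that was no longer there with BZLF depended on the scale. On FPKM, the difference between the group means of IMQ + NS and IMQ + BZLF was 99.0% of the rise over control for S100a8, from 98.9% to 99.1% for the single IMQ + BZLF samples. For S100a9 it was 99.8%, from 99.5% to 100.03%. Measured this way both genes were back near control, with 1.04% and 0.174% of the rise left. On log2(FPKM + 0.1), in which equal folds weigh equally, 78.1% of the rise of S100a8 was removed, from 76.9% to 79.5% for the single samples. For S100a9 94.9% was removed, from 87.6% to 100.6%. The samples of both genes did not overlap on this scale, with 21.9% of the rise of S100a8 and 5.05% of that of S100a9 left.

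The ratio of the genes tests that difference directly, since each sample then serves as its own reference. In the control group the S100a8 to S100a9 ratio was 0.838, 1.13, 0.952 and 0.875. In the IMQ + NS group it was 1.02, 1.14, 0.983 and 1.03. Near-equal FPKM of both subunit genes thus held across the rise with IMQ, with mean ratios of 0.948 ± 0.129 and 1.04 ± 0.0680 (SD, n = 4). In the IMQ + BZLF group the ratio was 3.04, 2.72, 2.04 and 1.68, with a mean of 2.37 ± 0.622. Each IMQ + BZLF sample had more S100a8 than S100a9, beyond the highest ratio of either other group. The log2 ratio in the IMQ + BZLF group was 1.29 above control, a 2.44-fold higher ratio (two-sided exact permutation p = 0.0286, 0.0429 adjusted over 3 comparisons). It was 1.14 above the IMQ + NS group, a 2.20-fold higher ratio (exact permutation p = 0.0286, adjusted 0.0429). Between the IMQ + NS and control groups it differed by 0.15, which is within the spread (exact permutation p = 0.20, adjusted 0.20).

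**Figure D2:**
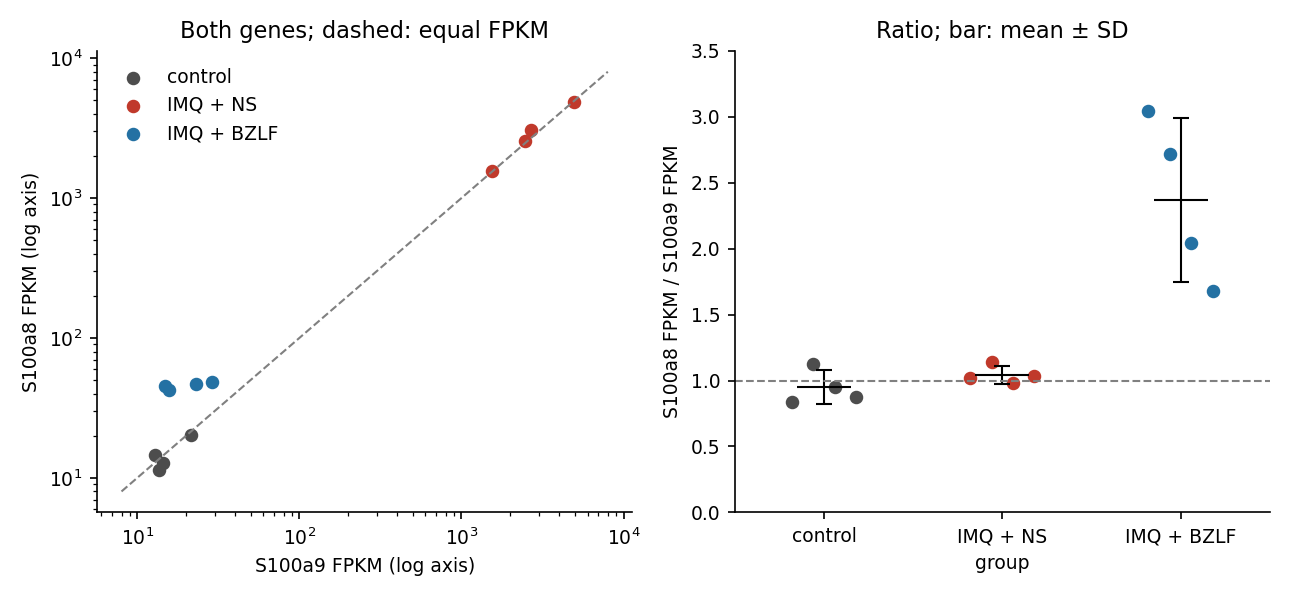
Left, S100a8 against S100a9 FPKM in each sample on log axes, with a dashed line at equal FPKM; right, the ratio of S100a8 to S100a9 FPKM in each sample, with the mean ± SD (n = 4) and a dashed line at 1. The control and IMQ + NS samples lie along the dashed line, at ratios of 0.838 to 1.14, and the IMQ + BZLF samples lie above it, at 1.68 to 3.04.

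Within the groups, the saline-treated lesion was the one where both genes kept the same order of samples throughout. Among the 6 pairs of samples in a group, both genes ordered the pair alike in 6 of the IMQ + NS group, 5 of the IMQ + BZLF group and 4 of the control group. With 4 samples a group no correlation was computed, and these counts are a description. In the IMQ + NS group S100a8 varied 3.11-fold between samples and S100a9 3.23-fold, while the SD of their log2 ratio was 0.092. In the IMQ + BZLF group S100a8 varied 1.14-fold, with a coefficient of variation of 5.72%, and S100a9 varied 1.96-fold, with a coefficient of 32.5%, and the SD of the log2 ratio was 0.39. The samples of this group thus differed in S100a9 far more than in S100a8. In the control group the coefficients were 26.9% and 25.1% and the SD of the log2 ratio was 0.19.

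The expression of the other genes that act with calprotectin is given by lists, beginning with its receptors. At most 1 gene of the receptor list was called in each comparison. Of 11 tested genes of the receptors and the first steps behind TLR4, 0 were called higher and 1 lower in IMQ + NS against control samples, 0 were called in IMQ + BZLF against IMQ + NS samples, and 1 was called lower in IMQ + BZLF against control samples, with medians of 0.01, -0.11 and -0.29 on the log2 scale. Over all genes tested, 11.4% were called higher and 11% lower in the first of these comparisons, 0.321% and 2.2% in the second, and 9.65% and 10.1% in the third. At an unadjusted p under 0.05 in limma, 2 of the 11 were higher and 4 lower with IMQ, 1 was higher and 4 lower with BZLF against saline, and 1 was higher and 6 lower in IMQ + BZLF against control samples. Over all genes tested the medians were 0.05, -0.02 and -0.02. Tlr4, the receptor best known for calprotectin, was at 4.60 ± 0.816, 3.03 ± 0.433 and 2.33 ± 0.285 FPKM (SD, n = 4) for control, saline-treated and BZLF-treated skin. Ager, the gene of RAGE, was at 0.318 ± 0.205, 0.293 ± 0.134 and 0.378 ± 0.154 FPKM. Tlr4 was lower in IMQ + BZLF against control samples by -0.94 (limma adjusted p = 0.0014), under the limit on the fold change, and Ager was low in every group, so neither was a DEG. Traf6, which relays the signal behind TLR4, differed by 0.59 with IMQ (adjusted p = 6.6e-04) and was not a DEG either. Cd36, a fatty acid transporter that takes up the arachidonic acid carried by calprotectin, was the gene called lower with IMQ, by -1.16 on the log2 scale (limma adjusted p = 9.2e-04), a call that was lost without control replicate 1 (-0.99). Bsg, a receptor of S100A9 on keratinocytes and tumor cells, was at 244 ± 11.1, 192 ± 7.52 and 191 ± 4.29 FPKM and was not a DEG. Cd14, the co-receptor of TLR4, was downregulated in IMQ + BZLF against control samples by -1.27 (limma adjusted p = 0.0037). Without control replicate 2 or IMQ + BZLF replicate 4, and with the samples rescaled to equal sums or quantile normalized, 2 of these genes were called lower there.

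Of the cytokines known to switch on S100a8 and S100a9 in keratinocytes, 12 of 18 passed the filter on low values. With IMQ, 7 of the 12 rose and 0 fell, with a median log2 fold change of 2.02. With BZLF against saline, 7 fell and 0 rose, with a median of -1.69. Against control, 3 were higher and 3 lower in the IMQ + BZLF group, with a median of -0.0016. Over all genes tested, 11.4% were called higher and 11% lower with IMQ, and 0.321% and 2.2% with BZLF against saline. Against control these shares were 9.65% and 10.1%. Il17a, Il17f and Il23a passed the filter through the IMQ + NS group alone, so a difference of that group was set by the filter. Of the other 9, 5 rose with IMQ and 5 fell with BZLF against saline, with medians of 1.97 and -1.44, and 3 were higher and 3 lower against control, with a median of 0.15. Among the 5 that fell was Il1f8, the gene of IL-36β (-1.44, limma adjusted p = 0.044). Its call was lost in 6 of 8 fits with 1 sample removed. With 1 FPKM added before the logarithm, 5 of the list were called higher with IMQ and 4 lower with BZLF against saline. In that setting 3 were higher and 2 lower against control. Il17a was listed at 0 in all control and IMQ + BZLF samples and was at 0.717 ± 0.296 FPKM in the IMQ + NS group, so no fold is given. Il17f was at 0.0099 ± 0.0127, 0.782 ± 0.394 and 0.00964 ± 0.0124 FPKM for control, saline-treated and BZLF-treated skin. Their calls with IMQ and with BZLF against saline follow from the filter, and with 1 FPKM added before the logarithm their log2 fold changes were under 1 in size. Il22 was under the filter, with means of 0.0182, 0.217 and 0.0181 FPKM, and was listed at 0 in 3 control and 3 IMQ + BZLF samples.

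The IL-1 family members were measured at higher levels and did not all return. Il1b, an early inflammatory cytokine of myeloid cells, was at 5.67 ± 0.569, 28.5 ± 19.2 and 2.07 ± 0.666 FPKM. It was upregulated with IMQ by 2.07 on the log2 scale (limma adjusted p = 0.0027) and downregulated with BZLF by -3.53 (adjusted p = 0.0035), to under the control group by -1.45 (adjusted p = 6.2e-04). Il1f6, the gene of IL-36α, went from 0.614 ± 0.507 to 50.4 ± 20.4 FPKM with IMQ and was at 5.36 ± 4.25 FPKM with BZLF. Like S100a8, it was a DEG in all 3 comparisons, and it stayed 2.79 above control on the log2 scale (limma adjusted p = 0.0058). Il1f9, the gene of IL-36γ, was at 5.95 ± 2.30, 32.3 ± 10.6 and 6.78 ± 2.96 FPKM. Like S100a9, it was a DEG in the first 2 of these comparisons, with log2 fold changes of 2.46 and -2.31, and was not a DEG against control (0.15, limma adjusted p = 0.77). Tnf was at 2.35 ± 0.828, 1.66 ± 0.446 and 0.386 ± 0.215 FPKM, so that it was not called with IMQ and was called lower with BZLF than in either other group, by -1.93 and -2.38. The call against saline was lost with 1 FPKM added before the logarithm (-0.94).

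Of 10 receptors through which keratinocytes sense these cytokines, 0 were DEGs by limma in any comparison. At an unadjusted p under 0.05, 3 were higher and 1 lower with IMQ, 6 were lower with BZLF against saline and 3 were lower in IMQ + BZLF against control samples, with medians of 0.21, -0.28 and -0.18. Of 15 transcription factors that act on the calprotectin genes or in the same cells, 3 were called higher and 1 lower with IMQ, 3 were called lower with BZLF against saline, and 1 was higher and 2 lower in IMQ + BZLF against control samples, with medians of 0.33, -0.30 and -0.29. The shares called with IMQ and against control were thus near those over all genes, at 11.4% higher and 11% lower and at 9.65% and 10.1%, and 2.2% of all genes were called lower with BZLF against saline. Without a filter on low values, 1 factor was called lower with BZLF against saline. By an unadjusted p under 0.05 in limma, 8 of the 15 were higher and 3 lower with IMQ, and 0 higher and 10 lower with BZLF against saline. By the same measure 3 were higher and 6 lower in IMQ + BZLF against control samples. Stat3, which acts behind IL-22 and IL-6 family receptors, was at 34.1 ± 3.83, 43.7 ± 4.50 and 28.0 ± 4.86 FPKM. Cebpb, a main C/EBP factor of epidermis and myeloid cells, was at 128 ± 28.3, 171 ± 7.14 and 149 ± 7.96 FPKM. Stat3 differed by 0.36 with IMQ and by -0.65 with BZLF against saline (limma adjusted p = 0.019 and 0.017). Cebpb differed by 0.45 with IMQ (limma adjusted p = 0.028). Neither gene passed the limit on the fold change. Nfkbiz, which makes the NF-kappa B cofactor needed by many IL-17 and IL-36 target genes, was at 6.59 ± 1.75, 12.9 ± 2.36 and 4.40 ± 0.626 FPKM and was downregulated with BZLF against saline by -1.53 (limma adjusted p = 0.0013). The other factors called lower there were Bcl3 (-1.07) and Spi1 (-1.09), the gene of PU.1. Both calls were lost without IMQ + BZLF replicate 1 (-0.98 for Bcl3 and -0.90 for Spi1) or IMQ + NS replicate 3 (-0.96 and -0.97) or 4 (-1.08 and -1.06), and that of Bcl3 also without IMQ + BZLF replicate 2 (-0.94). Cebpd, another C/EBP factor, was called lower with IMQ by -1.18 (limma adjusted p = 0.015), which was lost without control replicate 3 (-0.95) or 4 (-0.98).

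**Figure D3:**
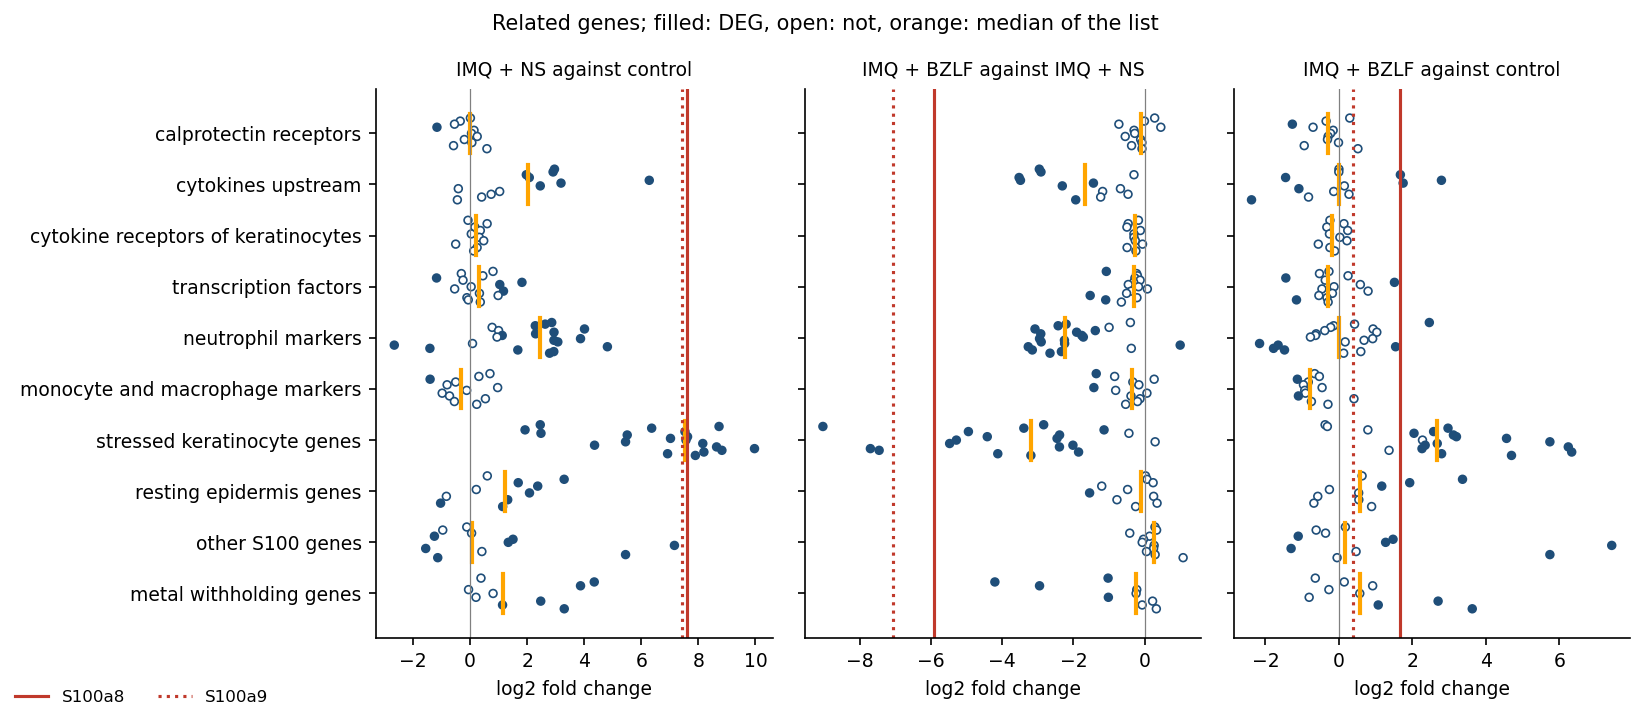
Log2 fold changes of the tested genes of each list in the 3 comparisons, with filled points for DEGs, open points for other genes, an orange bar at the median of the list, and red lines at S100a8 (solid) and S100a9 (dotted). The medians of the stressed keratinocyte genes, at 7.53, -3.19 and 2.68 in the order drawn, have the sign of the calprotectin genes in each comparison. In the last, the median lies above both calprotectin genes, though not every gene of the list does. The medians of the receptors are at 0.01, -0.11 and -0.29.

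Markers of the cell types that can make calprotectin were read to describe the samples. Of 20 neutrophil markers, 14 were called higher and 2 lower with IMQ, and 16 lower and 1 higher with BZLF against saline, with medians of 2.46 and -2.25. Over all genes tested, 11.4% were called higher and 11% lower with IMQ, and 2.2% lower and 0.321% higher with BZLF against saline. Trem1 passed the filter on low values through the IMQ + NS group alone, so a difference of that group was set by the filter. Of the other 19, 13 were higher and 2 lower with IMQ, with a median of 2.30. With BZLF against saline 15 of them were lower and 1 higher, with a median of -2.25. Outside the IMQ + NS group, Ly6g and Cd177 also lay under the filter on average. With a filter at a mean of 1 FPKM, 13 markers were tested, 9 of them were called higher with IMQ and 10 were called lower with BZLF. Against control, 2 were higher and 4 lower in the IMQ + BZLF group, with a median of -0.0072, beside 9.65% higher and 10.1% lower of all genes. Without IMQ + BZLF replicate 1 there were 5 markers higher, and 1 without IMQ + BZLF replicate 3 or 4. Their summed level was 54.4 to 75.1 FPKM in the control group, 103 to 191 FPKM in the IMQ + NS group and 28.8 to 45.1 FPKM in the IMQ + BZLF group. In the IMQ + NS samples the sum of the whole list was far under the level of either calprotectin gene. In the IMQ + BZLF samples the range of the sum, 28.8 to 45.1 FPKM, overlapped that of S100a8, at 42.5 to 48.6 FPKM. It met the range of S100a9, at 14.8 to 29.0 FPKM, only at its lower end. In each group 0 of the markers were at 0 in all samples. Cxcr2, the chemokine receptor that draws neutrophils into skin, was at 0.301 ± 0.138, 6.49 ± 2.95 and 0.678 ± 0.344 FPKM and was called in the first 2 comparisons, by 4.01 (limma adjusted p = 8.2e-05) and -3.08 (adjusted p = 0.0042). Ly6g, which marks mouse neutrophils, was at 0.0135 ± 0.0156, 0.856 ± 0.484 and 0.132 ± 0.209 FPKM. It was called higher with IMQ by 2.94 (limma adjusted p = 2.3e-04), and with 1 FPKM added before the logarithm the rise was 0.84 and not called. As its level outside the IMQ + NS group was under the filter on average, a difference of that group was partly set by the filter. Its call with BZLF (-2.25, limma adjusted p = 0.047) was lost in 7 of 8 fits with 1 sample removed, with -2.49 to -1.97 there, and held without IMQ + BZLF replicate 4 (-2.78). Elane, the gene of neutrophil elastase, was at 0.340 ± 0.284, 0.701 ± 0.377 and 0.194 ± 0.0842 FPKM. It was not a DEG with IMQ, and its call with BZLF (-1.38, limma adjusted p = 0.043) was lost in 7 of 8 such fits, held without IMQ + NS replicate 2 (-1.61), and was as small as -1.10 without IMQ + NS replicate 3. Mpo, the myeloperoxidase gene, moved the other way, at 6.97 ± 1.51, 1.02 ± 0.248 and 2.13 ± 0.354 FPKM. The level of the marker sum beside that of the calprotectin genes does not tell how much of their RNA neutrophils hold. The part of neutrophil number in the levels of S100a8 and S100a9 was not tested.

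Monocyte and macrophage markers were mixed. Of 12, 0 were called higher and 1 lower with IMQ, 2 lower with BZLF against saline and 2 lower in IMQ + BZLF against control samples, with medians of -0.31, -0.36 and -0.79. Over all genes tested, 11.4% were called higher and 11% lower with IMQ, 2.2% lower with BZLF against saline and 10.1% lower against control. Their summed level was 1229 to 1759 FPKM in the control group, 765 to 1178 FPKM in the IMQ + NS group and 535 to 847 FPKM in the IMQ + BZLF group. Adgre1, the gene of F4/80, was at 28.6 ± 4.46, 46.0 ± 4.47 and 18.1 ± 3.47 FPKM and was downregulated with BZLF against saline by -1.36 (limma adjusted p = 0.0016). With IMQ it differed by 0.70 (adjusted p = 0.0016), under the limit on the fold change. Cx3cr1, a chemokine receptor of monocytes and resident macrophages, was the other marker called lower with BZLF against saline, by -1.42 (limma adjusted p = 0.037), after a difference of 0.97 with IMQ (adjusted p = 0.036). Its call with BZLF was lost in 7 of 8 fits with 1 sample removed, with -1.54 to -1.14 there, and held without IMQ + NS replicate 2 (-1.68). Without control replicate 2 or IMQ + NS replicate 2, 1 marker was called higher with IMQ. Against control, 4 were lower without IMQ + BZLF replicate 4 and with the samples rescaled to equal sums, and 1 without IMQ + BZLF replicate 1 or control replicate 3.

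Genes of stressed, hyperproliferative keratinocytes rose with IMQ as S100a8 and S100a9 did, and most stayed above control with BZLF. All 19 of the list were upregulated with IMQ, with a median log2 fold change of 7.53, close to the 7.58 of S100a8 and 7.44 of S100a9. With BZLF against saline 17 were downregulated, with a median of -3.19, and against control 14 were still higher and 0 lower, with a median of 2.68. Of all genes tested, 11.4% were called higher with IMQ, 2.2% lower with BZLF against saline and 9.65% higher against control. With 1 FPKM added before the logarithm, 10 of the 19 were called higher against control and 0 lower, with a median of 1.73. In that setting 979 of all genes tested were called higher there. The summed level of the list was 215 to 640 FPKM in the control group, 4717 to 9159 FPKM in the IMQ + NS group and 1479 to 1983 FPKM in the IMQ + BZLF group. Krt6a, a keratin of wounded and psoriatic epidermis, was at 12.5 ± 5.89, 563 ± 207 and 105 ± 24.5 FPKM. It was downregulated with BZLF by -2.39 (limma adjusted p = 0.0017) and stayed 3.12 above control (adjusted p = 9.1e-05). Krt16, its type I partner, was at 2.62 ± 0.452, 530 ± 222 and 21.5 ± 20.8 FPKM and stayed 2.58 above control on the log2 scale (limma adjusted p = 0.0032). Both keratins thus stayed above control, as did S100a8. Defb3, a beta-defensin gene, was at 0.315 ± 0.172, 191 ± 128 and 0.338 ± 0.345 FPKM, with -9.04 on the log2 scale in IMQ + BZLF against IMQ + NS samples (limma adjusted p = 4.3e-04) and -0.32 against control (adjusted p = 0.71). It was among the 5 of the list, with Sprr2d, Defb14, Lce3f and Il1f5, that were not called against control, as was S100a9. Of 10 genes of resting epidermis, 6 were called higher and 1 lower with IMQ, 1 lower with BZLF against saline (Krt14, -1.54) and 3 higher in IMQ + BZLF against control samples, with medians of 1.23, -0.11 and 0.59. The shares of all genes tested called so were 11.4%, 11%, 2.2% and 9.65% in that order. Without control replicate 2, 1 of the resting epidermis genes was called lower in IMQ + BZLF against control samples. The part of the amount of epidermis in the levels of S100a8 and S100a9 was not tested.

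Among the other 11 tested genes of the S100 family, 4 were called higher and 3 lower with IMQ and 0 were called by limma with BZLF against saline, where 0.321% of all genes were called higher and 2.2% lower. There, 3 were higher and 1 lower at an unadjusted p under 0.05. In IMQ + BZLF against control samples, 4 were higher and 2 lower, and the medians of the 3 comparisons were 0.05, 0.25 and 0.18 on the log2 scale. Of all genes tested, 11.4% were called higher and 11% lower with IMQ, and 9.65% and 10.1% in IMQ + BZLF against control samples. S100b, a gene of glial cells and melanocytes, was at 2.77 ± 0.936, 1.22 ± 0.483 and 2.64 ± 0.713 FPKM and differed by 1.08 with BZLF against saline (limma adjusted p = 0.053), and 1 of the 11 was called higher there under median ratio scaling, under quantile normalization and without IMQ + NS replicate 2 or IMQ + BZLF replicate 1. S100a7a, the mouse relative of psoriasin, lies next to S100a8 on chromosome 3. It was at 0.767 ± 1.07, 23.0 ± 2.58 and 28.6 ± 5.40 FPKM, 5.45 above control with IMQ (limma adjusted p = 2.1e-04) and 0.30 above the saline group with BZLF (adjusted p = 0.23). S100a3, a gene of the hair cuticle, was at 10.9 ± 19.6, 388 ± 51.5 and 469 ± 82.8 FPKM. Control replicate 2 was the highest control for both, with 2.37 FPKM of S100a7a and 40.2 FPKM of S100a3, and without it both were still called higher with IMQ. S100a6, the next gene before S100a7a in the table, was at 585 ± 74.9, 774 ± 25.0 and 805 ± 62.3 FPKM and was not a DEG. On the other side, Pglyrp4, a peptidoglycan recognition gene and the nearest gene after S100a9 that the table holds, was at 0.743 ± 0.0957, 2.40 ± 1.20 and 0.382 ± 0.0940 FPKM. It rose with IMQ by 1.47 (limma adjusted p = 0.0026) and fell with BZLF by -2.29 (adjusted p = 0.0041), at a level far under that of S100a9, and with 1 FPKM added before the logarithm the rise was 0.91 and not called.

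**Figure D4:**
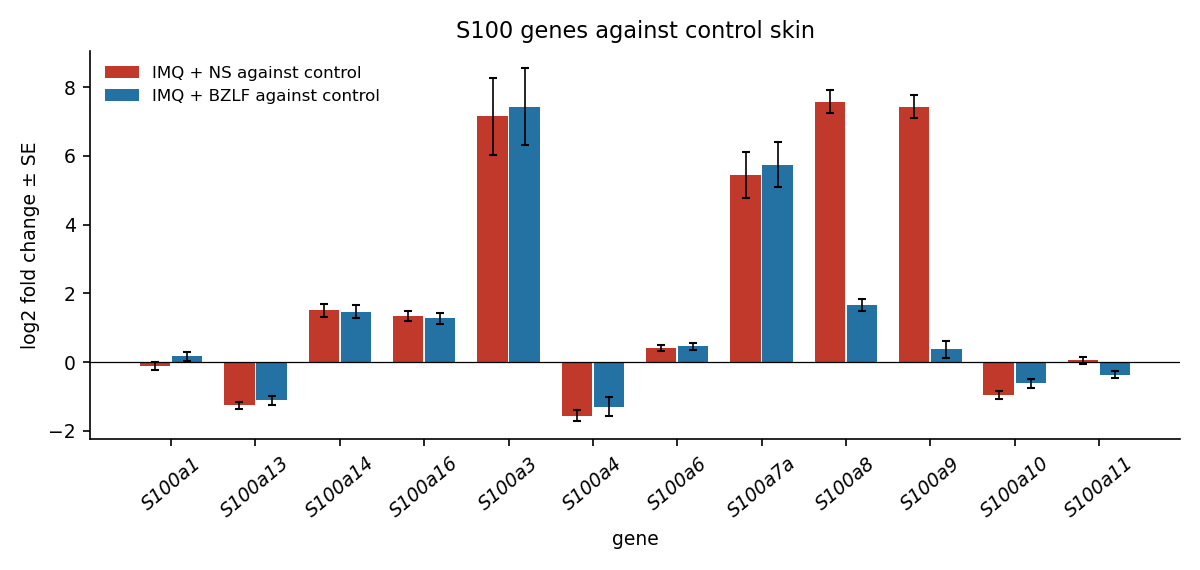
Log2 fold changes with their SE (limma) of S100a genes in IMQ + NS against control samples (red) and IMQ + BZLF against control samples (blue). The red and blue bars are alike in height for most genes, such as S100a7a (5.45 and 5.74), and differ for S100a8 (7.58 and 1.66) and S100a9 (7.44 and 0.38).

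Genes that withhold metals or handle them, as calprotectin does, were mixed. Of 9 tested, 5 were called higher with IMQ, 4 lower with BZLF against saline and 3 higher in IMQ + BZLF against control samples, with medians of 1.14, -0.24 and 0.57. The shares of all genes tested called so were 11.4%, 2.2% and 9.65% in that order. With median ratio scaling, equal sums or quantile normalization, 2 were called lower with BZLF against saline. One call lost was that of Hp, the gene of the hemoglobin-binding haptoglobin, which moved from -1.02 to -0.97, -0.99 and -0.88. Lcn2, which binds the siderophores with which bacteria take up iron, followed the pattern of S100a9, at 4.79 ± 0.614, 105 ± 39.0 and 5.28 ± 0.456 FPKM. It was upregulated with IMQ by 4.35 (limma adjusted p = 4.5e-06) and downregulated with BZLF by -4.21 (adjusted p = 8.3e-05), and against control the difference was 0.14 (adjusted p = 0.33). Ltf, the gene of the iron-binding lactoferrin of neutrophil granules, was at 0.0485 ± 0.0304, 2.08 ± 0.451 and 0.217 ± 0.176 FPKM. Slc40a1, the iron exporter, was at 7.63 ± 5.76, 64.7 ± 7.33 and 81.2 ± 7.40 FPKM. It rose with IMQ by 3.30 (limma adjusted p = 1.7e-04) and, unlike the calprotectin genes, was not called lower with BZLF against saline (0.33, adjusted p = 0.070).

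The genes whose profiles over the 12 samples were most like those of S100a8 and S100a9 were ranked by the root mean square difference of log2(FPKM + 0.1), each gene centred on its own mean, over 12656 genes with a mean of at least 1 FPKM. The nearest to S100a8 were Serpinb3a at 0.580, S100a9 at 0.616, Sprr2i at 0.711, Sprr2e at 0.741 and Krt16 at 0.758. The nearest to S100a9 were S100a8 at 0.616, Sprr2e at 0.780, Sprr2d at 0.906, Serpinb3a at 1.01 and Sprr2i at 1.02. Serpinb3a and Sprr2e had a mean of at least 1 FPKM through the IMQ + NS group alone, and with control values under the added 0.1 their distances depend on that constant, so their likeness supports nothing further. Among the other genes ranked, S100a8 and S100a9 were the nearest to each other. Serpinb3a is a protease inhibitor gene of squamous epithelium, and the Sprr2 genes encode small proline-rich proteins of the cornified envelope. Both belong to families of near-identical copies whose fragments may be shared between members, so their single values are uncertain. In the control group these genes were far less expressed than the calprotectin genes, with Serpinb3a at 0.0388 ± 0.0202 FPKM and Sprr2e at 0.0491 ± 0.0203 FPKM.

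**Figure D5:**
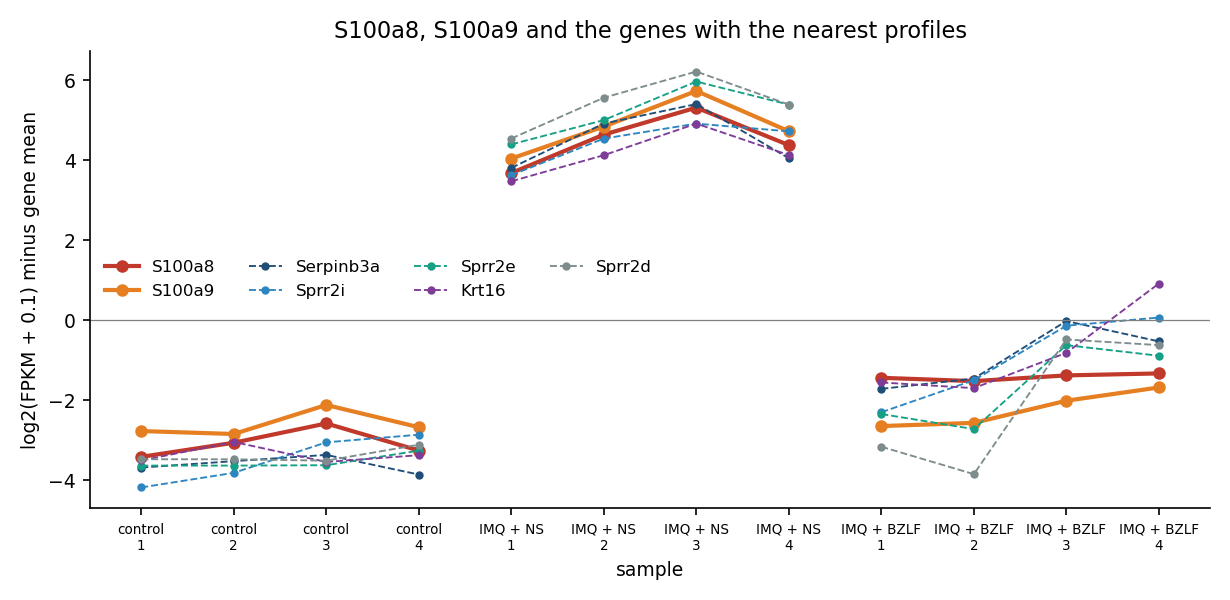
Log2(FPKM + 0.1) minus the mean of the gene in each of the 12 samples for S100a8, S100a9 and the genes with the nearest profiles, with lines joining the samples of a group for tracing only. All rise together in the IMQ + NS group and fall in the IMQ + BZLF group, where S100a8 varies least between samples (SD 0.083 on the log2 scale).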

How the data were processed

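Total RNA of 12 skin samples was sequenced, and the authors deposited FPKM values per gene and sample, normalized for transcript length and depth, not logarithmic and not pooled. The study's methods name Bowtie2 and eXpress, while the submitters' processing notes name fastp, HISAT2, HTSeq, R 3.2.0 and the mm10 build, and the methods and labels also name different extraction and library kits. Which pipeline made the table is not stated in the sources used here. DESeq2, which the authors ran on counts, needs counts and was not run. Of 7538 low values, 39.2% were whole multiples, to within 0.05, of the value taken as 1 fragment, so reads were not rebuilt and depth is unknown.

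Genes with a mean of at least 0.1 FPKM over the 12 samples were tested on log2(FPKM + 0.1) with limma 3.58.1 in R 4.3.3, variances moderated with a trend, for each pair of groups of 4, with Benjamini-Hochberg adjustment over all genes tested. The constant of 0.1 understates the folds of low genes. The fit was tested on simulated data. Single genes and ratios were compared by two-sided exact permutation tests of 4 against 4 samples. Tables and figures were made with pandas 2.3.3 and matplotlib 3.10.9 under Python 3.11.15. Promoter windows came from RefSeq (GRCm38.p6), and IL-36 genes were matched by their RefSeq synonyms. Named were S100a8 and S100a9, the 5 genes nearest to each in profile, the 3 genes of each list with the largest change in IMQ + BZLF against IMQ + NS and the 3 in IMQ + NS against control samples, chromosomal neighbours, and a fixed set of receptors, cytokines, factors and cell markers, and not all of them are described. Il1f9, Il23a, Mpo, Defb14, Lce3f, Il1f5, Trem1 and Cd177 were named after their values were seen. The members, lists and tests were chosen with earlier results of these data known. The alternatives were other constants, filters, scalings and variance models, a replicate block, no limit on the fold change, and each sample left out in turn. List counts without control replicate 2, and without members that passed the filter through the IMQ + NS group alone, were added after the data were seen.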

Additional observations from a re-analysis of the deposited data

Results flagged for a closer look

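Values of 65 genes and ratios were looked at for a sample far from the other 3 of its group, which in 195 groups marked 20 values, and chance alone marks about 1 group in 20. S100a8, S100a9 and their ratio had none. The cause was not tested for any of them.

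Among the genes of cells that can make calprotectin, Krt16 was at 52.3 FPKM in IMQ + BZLF replicate 4, against 15.7 in the nearest sample. Ly6g was at 0.443 FPKM in the same sample, against 0.0556 in the nearest, and this sample also had the highest S100a9 of its group. Adgre1 was at 52.7 FPKM in IMQ + NS replicate 3 (nearest 43.9) and at 12.9 FPKM in IMQ + BZLF replicate 1 (nearest 19.7). Krt5 was at 2186 FPKM in IMQ + NS replicate 3 (nearest 1514), the sample with the highest S100a8 and S100a9. In IMQ + NS replicate 1, the sample with the lowest S100a8 and S100a9, Ly6c2 was at 1.20 FPKM (nearest 8.74), Ngp at 6.41 FPKM (nearest 9.42) and Il6st at 44.0 FPKM (nearest 48.5).

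Control replicate 2 was far above the other controls in S100a3 at 40.2 FPKM (nearest 2.03), S100a7a at 2.37 FPKM (nearest 0.400) and Slc40a1 at 16.2 FPKM (nearest 5.54). Control replicate 1 was highest in S100a11 at 637 FPKM (nearest 560) and in Osmr at 8.65 FPKM (nearest 6.26). Control replicate 4 was highest in Il1f6 at 1.37 FPKM (nearest 0.434), Sprr2d at 1.02 FPKM (nearest 0.772) and Sprr2e at 0.0796 FPKM (nearest 0.0395). Il17rc was at 34.0 FPKM in IMQ + NS replicate 3 (nearest 30.6). Il22 was at 0.0730 FPKM in control replicate 3 and at 0.0723 FPKM in IMQ + BZLF replicate 3, and S100a5 at 0.0320 FPKM in IMQ + BZLF replicate 2, with the other samples of those groups listed at 0.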

How the results depend on the processing

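The calls of S100a8 and S100a9 and the direction of their ratio held under all alternatives run. With each sample left out, S100a8 ranged from 7.31 to 7.86 in IMQ + NS against control, from -6.20 to -5.65 in IMQ + BZLF against IMQ + NS and from 1.55 to 1.83 in IMQ + BZLF against control samples on the log2 scale. S100a9 ranged from 7.14 to 7.70, from -7.33 to -6.76 and from 0.19 to 0.54, with limma adjusted p of 0.0965 to 0.49 in the last. The log2 ratio ranged from 0.090 to 0.23, from 1.01 to 1.29 and from 1.15 to 1.44, as values with no test, since 3 against 4 samples were not tested. The rise of S100a8 removed ranged from 98.7% to 99.1% on FPKM, lowest without IMQ + NS replicate 3, and from 76.4% to 79.3% on the log2 scale. The rise of S100a9 removed ranged from 92.9% to 97.4% on the log2 scale.

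The counts over all genes depended more on the settings. With 1 FPKM added, 1023 genes were lower in IMQ + NS against control, 17 higher and 188 lower in IMQ + BZLF against IMQ + NS, and 979 higher and 865 lower in IMQ + BZLF against control samples. Without the limit on the fold change these were 4427 higher and 4142 lower, 195 higher and 791 lower, and 3640 higher and 4458 lower. Leaving out 1 sample gave 1512 to 2199 higher and 1573 to 1867 lower, 20 to 78 higher and 226 to 350 lower, and 1270 to 1942 higher and 1286 to 1807 lower. For genes higher in IMQ + BZLF against IMQ + NS, the counts were 20 and 78 without BZLF-treated replicates 2 and 1, and 26 and 30 without saline-treated replicates 3 and 4. The cause was not tested. For the named genes, 1533 results under alternatives kept their side of the threshold, 92 lost it and 0 reversed.

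Neither the methods nor the labels say that the replicate numbers pair samples. Same-numbered samples correlated in their deviations from the group means by -0.152 to 0.184, -0.0254 to 0.260 and -0.0766 to 0.176 in the 3 comparisons. With the number as a replicate block, S100a8 was at 7.58, -5.92 and 1.66 (limma adjusted p = 5.7e-06, 1.8e-04 and 9.6e-04) and S100a9 at 7.44, -7.06 and 0.38 (adjusted p = 1.3e-05, 8.2e-05 and 0.12). The block gave 1730 higher and 1684 lower, 47 higher and 335 lower, and 1457 higher and 1527 lower genes. Depth is unknown, so values near 0 FPKM, such as those of Ager, Il17a, Il22 and Ly6g, have no counting error beside them.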
